A study of Homo sapiens with 6 samples.

Results

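The genes described here are 9 myeloid surface antigen and receptor genes read in NB4 cells: CD33, ANPEP, CD38, FUT4, CD44, CD63, CD48, LAIR1 and LILRA1. The level of CD68, also named, was not analysed here. They are 9 of the 18625 genes of the deposited table and were found by their symbols. The set was put together with results of this comparison known: by the labels in the study's figures, ANPEP was chosen for its heatmap of changed genes and LILRA1 was among the genes it measured again by RT-qPCR, and the others were named beside them. The fold changes between Tan I and DMSO are therefore part of how the genes were selected and are given as a description, with no p-value for any of the 9.

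The libraries were made from NB4 cells, a human acute promyelocytic leukemia line that carries the PML-RARA fusion. Both groups grew in serum-containing RPMI-1640 medium. The control group of 3 libraries received the solvent DMSO for 3 days, and the treated group of 3 libraries received 10 μM Tan I, tanshinone I, a lipophilic compound of the Dan-shen root that the study examined as an inhibitor of the histone methyltransferase EZH2, for the same 3 days. All 6 libraries are of 1 cell line, and no source used here says that they came from separate cultures, so the errors and p-values measure the spread between these libraries.

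Surface antigens are the handles by which hematopoietic cells are classified. CD33, a sialic acid binding receptor of the Siglec family with inhibitory tyrosine motifs, and CD13, the aminopeptidase encoded by ANPEP, mark cells of the myeloid lineage from early stages on and are present on most acute myeloid leukemias. CD38 is an ectoenzyme that consumes NAD+ and is known as a gene induced by retinoic acid in promyelocytic cells, CD15 is a fucosylated carbohydrate made by the fucosyltransferase FUT4 and typical of granulocytes, and CD44 binds hyaluronan. LAIR1, an inhibitory receptor for collagen, and LILRA1, an activating receptor that lacks inhibitory motifs, belong to the leukocyte receptor complex. What was measured is RNA, not protein or carbohydrate at the cell surface.

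The 6 libraries held 21502760 to 31679138 reads on the listed genes. Values are normalized counts, reads divided by 1 size factor per library. The libraries were spread along a first principal component that held 70.8% of the variance and did not follow the treatment: the scores were -48.0, 41.1 and -26.7 in DMSO replicates 1, 2 and 3 and -46.8, 8.65 and 71.6 in Tan I replicates 1, 2 and 3. The promyelocyte markers MPO, AZU1, PRTN3 and CTSG, genes of primary granule proteins, were all present, while ELANE was not analysed here. Their summed level was 67165 to 73450 in DMSO and 37706 to 46112 in Tan I, most of it MPO. MPO itself fell by 0.78 on the log2 scale (SE 0.15) by the unadjusted rule given below, and in all 16 alternatives. CTSG fell by 0.69 (SE 0.25) by the same rule, a call lost without DMSO replicate 2, DMSO replicate 3 or Tan I replicate 1. AZU1 (-0.25, SE 0.19) and PRTN3 (-0.32, SE 0.24) overlapped between the groups and were not called. With adjustment MPO was called by DESeq2 and not by limma. Summed markers of other lineages were at 272 to 419 in DMSO and 293 to 527 in Tan I for 3 of 4 T cell markers, nearly all of it CD3D, and at 516 to 801 and 556 to 914 for 3 of 4 B cell markers, mostly CD79B. CD3E was at 8.67 to 20.0 and CD5 at 0 to 14.9 in the 6 libraries. ALAS2, the single erythroid marker read, was at 10.7 to 51.3. ITGA2B, the single megakaryocyte marker read, was at 1060 to 1127 in DMSO and 1332 to 1418 in Tan I. It rose by 0.35 (SE 0.10), called by the unadjusted rule and in all 16 alternatives, and was not called with adjustment. The part of these markers in the results below was not tested.

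Of the 9 genes, ANPEP was higher in Tan I by 0.33 on the log2 scale (SE 0.12) and LILRA1 was lower by 0.83 (log2 fold change -0.83, SE 0.29), and in both genes no Tan I library fell within the range of the 3 DMSO libraries. The other 7 genes overlapped between the groups. In bulk RNA, fewer cells of a kind and less RNA per cell cannot be told apart. A gene was called when the limma test gave an unadjusted p of at most 0.05 together with a log2 fold change of 0.25 or more in either direction. By that rule 2 of the 9 genes were called, against 408 of 16887 genes tested, or 2.42%. Of all genes tested, 1.32% were called higher in Tan I, where 1 of the 9 was, and 1.1% lower, where 1 of the 9 was. The 408 were 223 higher and 185 lower, and became 188 higher and 250 lower after rescaling all libraries to 1 common total, which moved the median of all genes to -0.06. Groups did not overlap for 2 of the 9 genes and for 7.89% of all genes tested. Since the set was chosen with these values known, nothing is read from its share. After Benjamini-Hochberg adjustment the share called by limma was 0%, with 0 of the 16887 genes past the threshold, while 410 had an unadjusted p of at most 0.05; edgeR also called 0 with adjustment and DESeq2 called 16, among them 0 of the 9. The median log2 fold change of the 9 genes was -0.04, beside -0.0016 over all genes tested, and their median absolute log2 fold change was 0.19, beside 0.14.

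**Figure D1:**
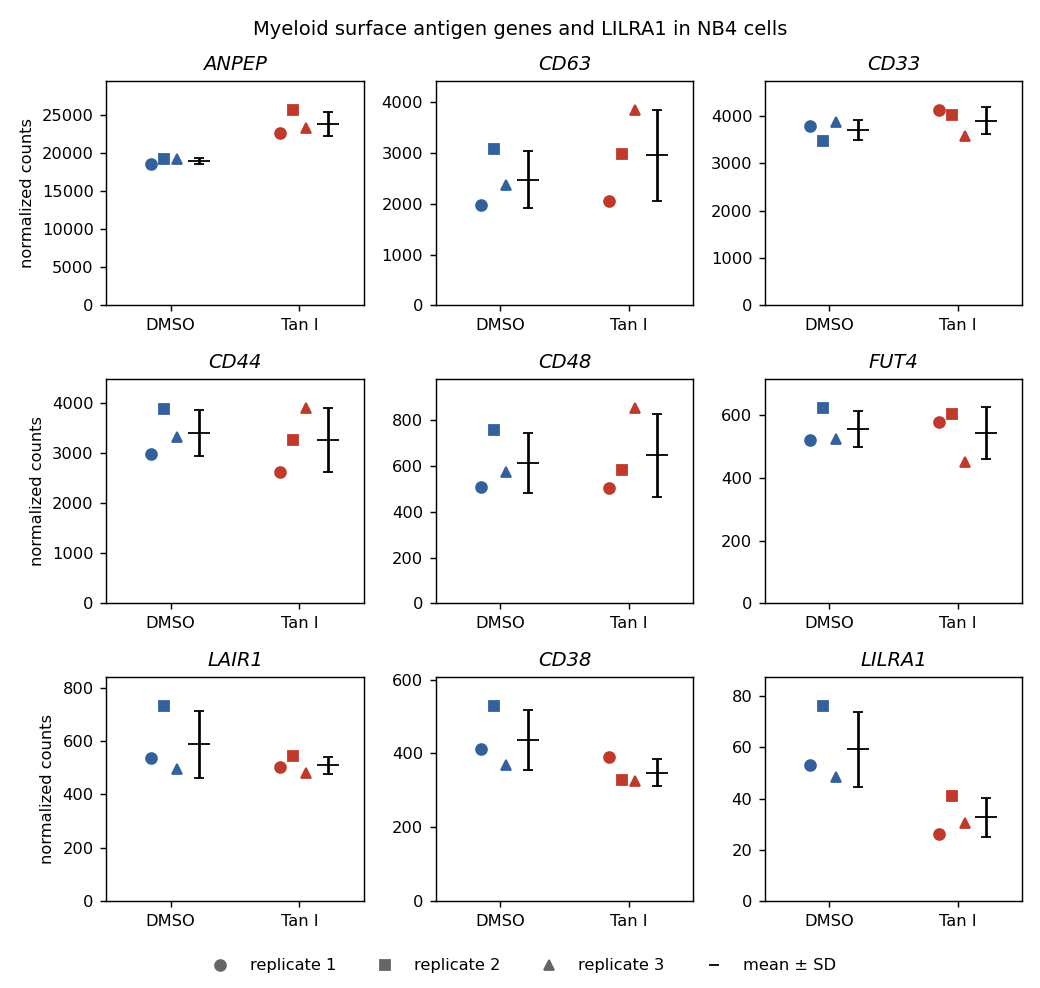
Normalized counts (vertical axis, linear from 0, with a scale of its own in each panel) of the 9 genes in the 3 DMSO and 3 Tan I libraries, 1 point per library with the mean and SD. The groups lie apart in ANPEP, with Tan I at 22588 to 25628 above DMSO at 18572 to 19265, and in LILRA1, with Tan I at 26.4 to 41.1 below DMSO at 48.4 to 76.1.

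ANPEP encodes CD13, a zinc-dependent peptidase that trims amino acids from the ends of peptides outside the cell. The gene lies on chr15:89784895-89815401 of GRCh38, minus strand, in the GENCODE 44 annotation, and has separate starts for its transcripts. The upstream start is known as the one used in myeloid cells and the downstream start as the one of epithelial cells of intestine and kidney. The RefSeq promoter windows of both starts, 250 bases before to 50 bases after the start, are printed 5′ to 3′ on the strand of the gene, because ANPEP is the most abundant of the 9 genes and its starts differ in base composition. Capitals mark a match to the retinoid receptor half-site, searched as AGGTCA or TGACCT. The windows lie on chr15:89814803-89815102 and chr15:89806579-89806878 of GRCh38.p14, both on the minus strand.
ANPEP upstream start: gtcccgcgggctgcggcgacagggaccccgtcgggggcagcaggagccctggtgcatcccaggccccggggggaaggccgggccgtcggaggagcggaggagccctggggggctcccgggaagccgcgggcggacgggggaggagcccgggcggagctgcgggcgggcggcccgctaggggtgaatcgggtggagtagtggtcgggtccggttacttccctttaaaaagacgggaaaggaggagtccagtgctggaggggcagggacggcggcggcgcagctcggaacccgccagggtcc
ANPEP downstream start: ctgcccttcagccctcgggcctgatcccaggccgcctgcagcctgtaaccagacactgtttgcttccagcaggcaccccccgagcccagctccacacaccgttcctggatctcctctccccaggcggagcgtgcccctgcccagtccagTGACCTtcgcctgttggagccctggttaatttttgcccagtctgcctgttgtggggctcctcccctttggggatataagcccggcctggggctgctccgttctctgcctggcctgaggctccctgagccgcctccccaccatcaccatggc
The upstream window was 75% G or C with 32 CpG dinucleotides, and the downstream window was 65.3% G or C with 10, while the median promoter of the RefSeq set was at 58.7% with 14. The single match, TGACCT, lies at position -101 counted from the downstream start. A gene-level table does not say which start was used.

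ANPEP was read at 18572, 19183 and 19265 normalized counts in DMSO replicates 1 to 3 and at 22588, 25628 and 23344 in Tan I replicates 1 to 3. These values rest on 19917, 19916 and 24655 reads in DMSO and 23110, 24317 and 17505 in Tan I. Every Tan I library was above every DMSO library, and the DMSO libraries lay within a narrow band. The means were 19006 ± 379 (SD, n = 3) in DMSO and 23854 ± 1582 (SD, n = 3) in Tan I, a fold change of 1.25. The gap between the groups, from 19265 to 22588, was wider than the SD of either group. ANPEP was chosen from genes already changed in these libraries, so nothing is read from this gap. The difference depended on scaling in size but not in sign: it was 0.27 after rescaling all libraries to 1 common total and 0.25 after quantile normalization, and ANPEP was not called in either. Among the other settings in which it was not called were those without DMSO replicate 1 (0.31), without DMSO replicate 2 (0.33), without DMSO replicate 3 (0.34) and without Tan I replicate 2 (0.27), and it was called in 9 of 16 alternatives.

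LILRA1 encodes a receptor that recognizes class I HLA molecules and signals through the Fc receptor gamma chain. The gene lies on chr19:54593582-54602381 of GRCh38, plus strand, within the leukocyte receptor complex, 3294 bases from its neighbour LILRA2 and 223023 bases from LAIR1. Its upstream RefSeq promoter window, at chr19:54593382-54593681 of GRCh38.p14 on the plus strand, is printed to set it beside the windows of ANPEP. It holds none of the motifs searched and so carries no capitals.
LILRA1 upstream start: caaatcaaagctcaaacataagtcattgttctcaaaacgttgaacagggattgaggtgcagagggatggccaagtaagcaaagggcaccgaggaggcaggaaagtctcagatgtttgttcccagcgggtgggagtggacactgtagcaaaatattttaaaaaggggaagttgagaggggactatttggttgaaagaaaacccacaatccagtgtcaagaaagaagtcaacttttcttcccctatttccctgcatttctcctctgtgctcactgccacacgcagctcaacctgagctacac
This window was 46.3% G or C with 4 CpG dinucleotides, against 75% and 32 at the upstream start of ANPEP.

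Few reads fell on LILRA1: 57, 79 and 62 in DMSO replicates 1 to 3 and 27, 39 and 23 in Tan I replicates 1 to 3. The exact Poisson 95% intervals of these reads were 43.2 to 73.9, 62.6 to 98.5 and 47.5 to 79.5 in DMSO and 17.8 to 39.3, 27.7 to 53.3 and 14.6 to 34.5 in Tan I, and cover counting error only. Single libraries of different groups therefore overlap within counting error, as DMSO replicate 1 and Tan I replicate 2 do. In normalized counts LILRA1 stood at 53.1, 76.1 and 48.4 in DMSO and at 26.4, 41.1 and 30.7 in Tan I, with all Tan I libraries below all DMSO libraries. The means were 59.2 ± 14.8 (SD, n = 3) and 32.7 ± 7.57 (SD, n = 3), a fold of 0.56 on the log2(value + 1) scale. The difference between the groups kept its sign in all 15 alternatives that gave a value, from -1.005 to -0.64, and LILRA1 was called in 12. It was not called without DMSO replicate 2 (-0.64), its highest library, without Tan I replicate 1 (-0.69), its lowest, or after quantile normalization (-0.75).

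LAIR1 shares the chromosomal region with LILRA1 and encodes an inhibitory receptor for collagen. It was read at 538, 730 and 496 normalized counts in DMSO and at 503, 543 and 480 in Tan I, with overlapping groups. The highest value was in DMSO replicate 2, as for LILRA1. The log2 fold change was -0.19 (SE 0.17), and was -0.02 at the smallest and -0.30 at the largest when 1 library was left out. Set against LAIR1 in the same library, LILRA1 stood at 0.0988, 0.104 and 0.0976 of it in DMSO and at 0.0524, 0.0757 and 0.0639 in Tan I. The ratio did not overlap between the groups, and the DMSO libraries lay close together. The library which was highest in both genes no longer stood apart. With 57 to 79 LILRA1 reads in the DMSO libraries, counting error limits what this closeness can show.

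CD33 is the target of an antibody conjugate used in acute myeloid leukemia, and lies on chr19:51225064-51243860, plus strand, apart from the leukocyte receptor complex. It was the steadiest of the 9 genes: the highest library was 1.19 times the lowest, while this ratio reached 2.88 for LILRA1. Its normalized counts were 3794, 3473 and 3868 in DMSO and 4119, 4011 and 3578 in Tan I, with overlapping groups. The log2 fold change was 0.07 (SE 0.11) and stayed within 0.01 to 0.13 in 16 alternatives. The ratio of ANPEP to CD33, both antigens of the myeloid lineage, was 4.89, 5.52 and 4.98 in DMSO and 5.48, 6.39 and 6.52 in Tan I. The ratio overlapped in a single pair, DMSO replicate 2 and Tan I replicate 1, unlike ANPEP itself. The promoter window of CD33 held 3 copies of the PU.1 core TTCCTC, at positions -90, -10 and 30 counted from the start.

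CD38 and FUT4, both genes of enzymes tied to antigens followed during myeloid differentiation, had overlapping groups. CD38 was read at 411, 528 and 370 in DMSO and at 390, 329 and 327 in Tan I. The lowest DMSO library lay below the highest Tan I library, and the log2 fold change was -0.31 (SE 0.17), between -0.42 and -0.17 when 1 library was left out. FUT4 was read at 518, 620 and 523 in DMSO and at 576, 601 and 448 in Tan I, with a log2 fold change of -0.04 (SE 0.16) that took the other sign without DMSO replicate 2 (0.05) or Tan I replicate 3 (0.09). FUT4 lies inside PIWIL4 on the same strand, and 384 of its 5826 windows of 150 bases, or 6.59%, are also PIWIL4 exon sequence. PIWIL4 itself was at 705 ± 64.7 (SD, n = 3) in DMSO and 716 ± 59.8 (SD, n = 3) in Tan I. CD38, CD33, ANPEP, CD44, CD63, CD48, LAIR1 and LILRA1 shared 0 such windows with another gene.

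CD44, CD63 and CD48, the first a hyaluronan receptor, the second a tetraspanin of late endosomes and granules and the last a lipid-anchored ligand of CD244, varied more among libraries of a group than between the groups. CD63 was read at 1972, 3081 and 2357 in DMSO and at 2045, 2975 and 3833 in Tan I. CD48 was read at 508, 760 and 574 in DMSO and at 504, 584 and 853 in Tan I. CD44 was read at 2981, 3888 and 3323 in DMSO and at 2614, 3270 and 3894 in Tan I, summed over its splice forms, which a gene-level table does not separate. In each of the 3 genes the highest value was in Tan I replicate 3, and DMSO replicate 2 was the highest DMSO library, which are also the libraries with the highest scores on the first principal component. The lowest values were in DMSO replicate 1 or Tan I replicate 1, the libraries with the lowest scores. The part of that component in these values was not tested. The log2 fold changes were 0.23 (SE 0.26) for CD63, 0.06 (SE 0.23) for CD48 and -0.07 (SE 0.18) for CD44. The sign turned for CD48 without DMSO replicate 1 (-0.07) or Tan I replicate 3 (-0.16), and for CD44 without DMSO replicate 2 (0.03) or Tan I replicate 1 (0.08). Leaving out 1 library at a time gave 0.02 to 0.48 for CD63, -0.16 to 0.22 for CD48 and -0.21 to 0.08 for CD44. The antisense genes CD44-AS1 and CD63-AS1 were low beside their partners, at 5.48 ± 2.26 and 13.7 ± 5.73 (SD, n = 3) in DMSO, and without a known strand setting their reads cannot be told apart from those of their partners.

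**Figure D2:**
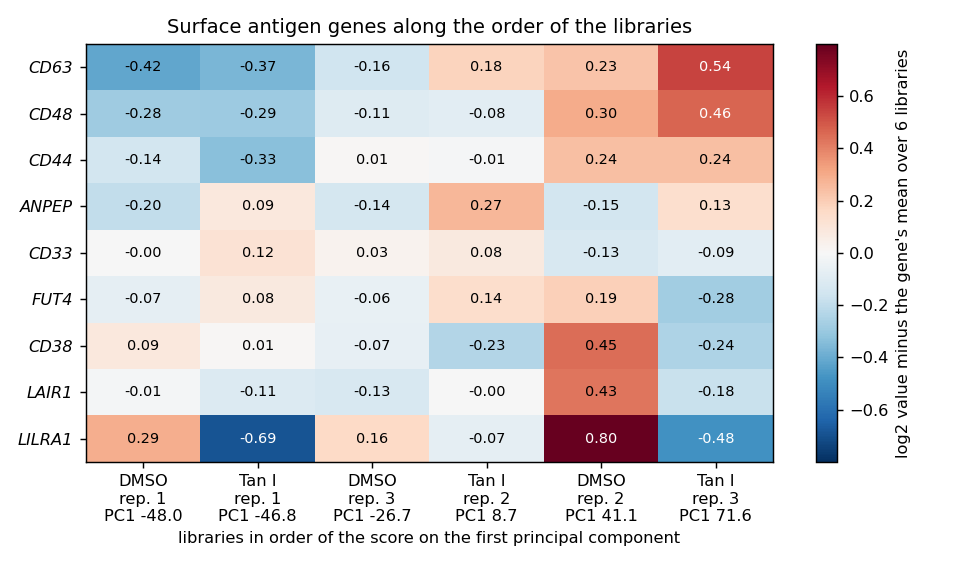
Log2 value minus the mean of the gene over 6 libraries (colour and number in each cell) for the 9 genes, with the libraries ordered by their score on the first principal component. CD63 goes from -0.42 in DMSO replicate 1 to 0.54 in Tan I replicate 3 along this order, while ANPEP and LILRA1 split by treatment.

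**Figure D3:**
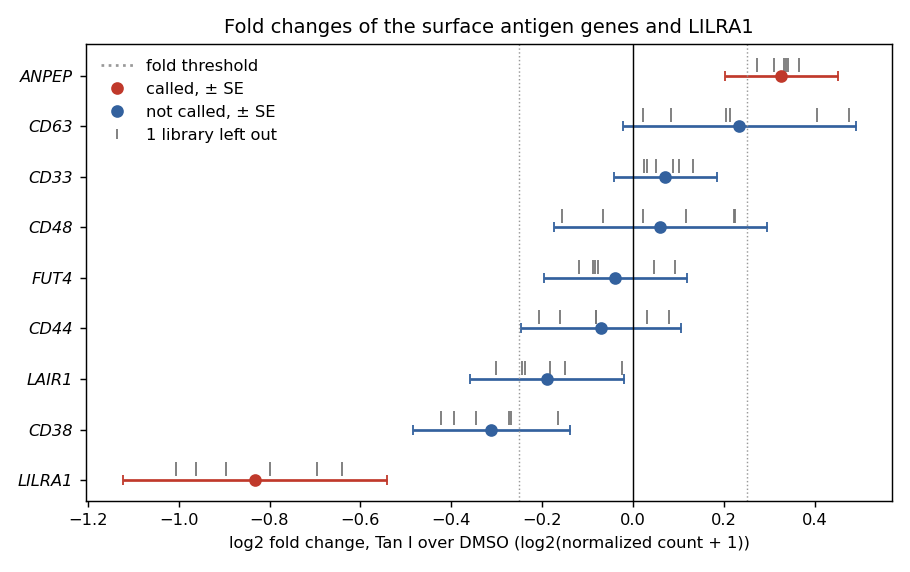
Log2 fold change between Tan I and DMSO on log2(normalized count + 1) with its SE (horizontal axis) for each of the 9 genes, with the values without 1 library as ticks and the fold threshold as dotted lines. ANPEP lies at 0.33 and LILRA1 at -0.83, and the ticks of FUT4, CD44 and CD48 fall on both sides of 0.

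Levels can be set beside each other between genes only per length, here as normalized counts per kb of merged exons in DMSO. ANPEP was the highest at 3767 ± 75.1 (SD, n = 3). By its mean over the 6 libraries of both groups it was in the 98.9th percentile of tested genes with a known exon length. CD63 followed at 1020 ± 232, CD33 at 621 ± 35.1 and CD44 at 340 ± 45.9 normalized counts per kb. The libraries of these 4 genes did not overlap in this order. CD48 stood at 189 ± 40.1, with its highest library at the lowest of CD44. FUT4 at 92.7 ± 9.64, LAIR1 at 72.9 ± 15.5 and CD38 at 63.6 ± 12 had ranges that overlapped over the 6 libraries. Within each library, however, FUT4 was above LAIR1 and LAIR1 above CD38. LILRA1 was the lowest at 15.3 ± 3.81, and in the 15.4th percentile by its mean over the 6 libraries.

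**Figure D4:**
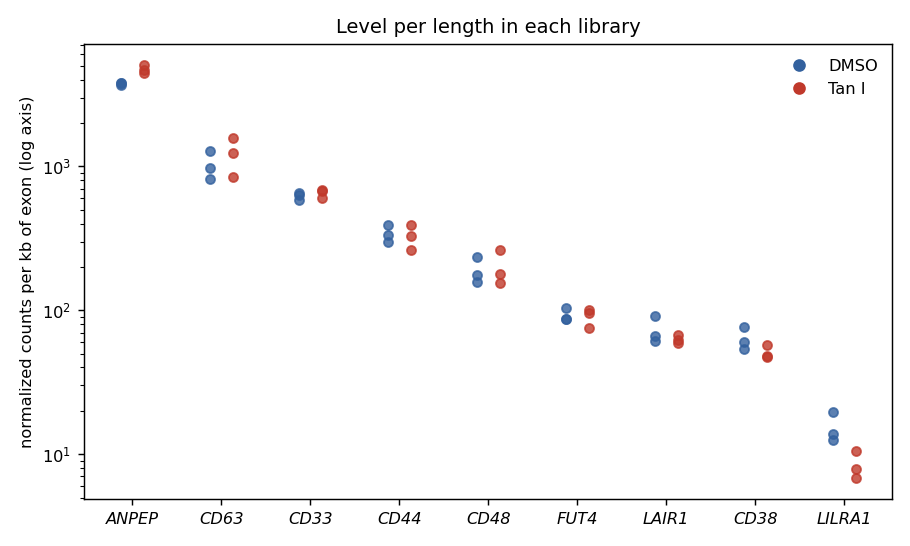
Normalized counts per kb of merged exons (log axis) of the 9 genes in each library, DMSO and Tan I. ANPEP lies at 3680 to 5079 over the 6 libraries and LILRA1 at 6.81 to 19.6, and the ranges of FUT4, LAIR1 and CD38 overlap.

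Promoter windows were read for all 10 named genes, 20 windows in all, of which 8 belong to CD63 and overlap in part. The PU.1 core, searched as GAGGAA or TTCCTC on both strands, was found in at least 1 window of CD33, CD63, CD68 and LAIR1. These were 11 of the 20 windows (55%), most of them of CD63, beside 27.9% of all 35116 RefSeq windows of the same length. The C/EBP motif TTGCNNAA or TTNNGCAA was found in CD68 alone, 1 of the 20 windows (5%), beside 10.5% of all windows. The retinoid half-site was found in ANPEP, CD44 and CD63, 3 of the 20 windows (15%), beside 13.8% of all windows. No match to one motif overlapped a match to another in these windows. LILRA1, CD38, FUT4 and CD48 held none of the 3 in these windows, which says only that these letters are not there.

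The relatives of the 9 genes were described with 11 lists written from general knowledge of the families, with earlier results of these data known. Of 160 listed genes 108 were tested, and 5 were called higher and 5 lower in Tan I, 9.26% against the 2.42% of all genes. FUCA1 and FLT3 are named in the study's figures and were chosen on these libraries. Without them the count was 8 of 106, or 7.55%. Each of the 108 had an adjusted p of at least 0.999 by limma, so none passed with adjustment in limma. DESeq2 called 1 of them with adjustment, FUCA1. The median log2 fold change was -0.01 and the median absolute log2 fold change 0.19. Groups did not overlap for 17 of the 108, or 15.7%, beside 7.89% of all genes. Since the lists were written with earlier results of these data known, nothing is read from these shares.

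The LILR receptors are the closest relatives of LILRA1. Of 11 genes of the LILR and LAIR list 6 were tested, and 2 were called, both lower in Tan I. LILRA2, an activating receptor next to LILRA1, was read at 212, 360 and 270 in DMSO and at 158, 162 and 231 in Tan I, with groups that overlapped, and fell by 0.60 on the log2 scale (SE 0.24). It was not called without DMSO replicate 2 (-0.40), DMSO replicate 3 (-0.61), Tan I replicate 1 (-0.50) or Tan I replicate 2 (-0.52), nor by limma without a variance trend, and was called in 11 of 16 alternatives. Of its windows 16.1% are shared with another annotated gene. LILRB2, an inhibitory receptor for class I HLA, was read at 27.0, 28.9 and 16.4 in DMSO and at 15.6, 9.49 and 10.7 in Tan I, each Tan I library below each DMSO library, and fell by 0.95 (SE 0.38). It was not called without DMSO replicate 1 (-0.85), DMSO replicate 2 (-0.80), Tan I replicate 2 (-0.81) or Tan I replicate 3 (-0.89), nor by DESeq2 or after quantile normalization, and was called in 8 of 15 alternatives. The others were not called: LILRA4 at -1.22 (SE 0.83), LILRA6 at -0.21 (SE 0.69), LILRB3 at 0.26 (SE 0.50) and LILRB5 at 0.27 (SE 0.31). The sum of the list was 366 to 444 in DMSO and 259 to 301 in Tan I, and most of it was LILRA2. LILRA6 and LILRB3 are near-identical copies in part, with 5.74% of the windows of LILRA6 found in LILRB3, so their split is uncertain, whereas LILRA1 shared 0 of 3083 windows.

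Among the Siglec relatives of CD33, 2 of 9 tested genes were called, both higher in Tan I. SIGLEC12 was read at 397, 531 and 417 in DMSO and at 561, 673 and 687 in Tan I, with the groups apart, and rose by 0.52 (SE 0.16). It was not called without DMSO replicate 1 (0.44), DMSO replicate 3 (0.47) or Tan I replicate 2 (0.48). SIGLEC6 was read at 56.9, 124 and 57.0 in DMSO and at 183, 151 and 113 in Tan I, with overlapping groups, and rose by 0.97 (SE 0.35), a call that was lost without DMSO replicate 1 (0.79), DMSO replicate 3 (0.79), Tan I replicate 1 (0.81) or Tan I replicate 2 (0.95). SIGLEC1, a sialic acid receptor of macrophages, had means of 253 and 246. The signalling partners of these receptors, 10 of 11 tested, had 0 called genes, with log2 fold changes of -0.11 for the lipid phosphatase INPP5D and -0.18 for the tyrosine phosphatase PTPN11, which had the highest normalized counts of the list, not scaled by length.

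The enzymes that supply, transfer and remove fucose surround FUT4. Of 17 tested, 1 was called: FUCA1, the lysosomal fucosidase, was read at 25.2, 34.7 and 20.3 in DMSO and at 66.5, 70.6 and 103 in Tan I and rose by 1.55 (SE 0.30), called in all 16 alternatives. POFUT2, which adds fucose to protein, and FUCA2 had the highest normalized counts and log2 fold changes of -0.03 and 0.23. Among the ectoenzymes beside ANPEP and CD38, 1 of 5 was called, ACE, the angiotensin converting peptidase. It was read at 131, 105 and 108 in DMSO and at 84.1, 64.3 and 49.3 in Tan I and fell by 0.82 (SE 0.25), called in all 16 alternatives, in the opposite direction to ANPEP. The peptidase LNPEP and the nucleotidase ENTPD1 were at -0.04 and -0.16.

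Of the hyaluronan and CD44 partners, 2 of 15 were called. MMP14, a membrane protease that cleaves CD44, went from 921 ± 62.3 to 1208 ± 117 (SD, n = 3) and rose by 0.39 (SE 0.12). It was not called without Tan I replicate 2 (0.33). HAS3, a hyaluronan synthase, went from 60.0 ± 5.35 to 35.7 ± 9.33 (SD, n = 3) and fell by 0.76 (SE 0.27), a call lost without DMSO replicate 1 (-0.69), DMSO replicate 3 (-0.79) or Tan I replicate 3 (-0.57). Moesin (MSN, 0.06) and serglycin (SRGN, 0.14) had the highest normalized counts. SRGN was read at 23229 in DMSO replicate 2 and 24337 in Tan I replicate 3, its highest libraries, as were those of CD63 and CD44. The tetraspanins (17 tested, TSPAN3 at 0.06 and CD37 at -0.13), LAMP1 (0.11) and LAMP2 (-0.04), which are relatives of CD68, and the SLAM family of CD48 (5 tested, CD58 at 0.20 and CD244 at -0.10) had 0 called genes.

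Antigens of mature granulocytes and monocytes had 1 called gene of 11. ITGAX, the CD11c integrin chain, went from 1973 ± 109 to 2585 ± 233 (SD, n = 3) and rose by 0.39 (SE 0.12). It was not called without Tan I replicate 2 (0.36) or after rescaling all libraries to 1 common total (0.33). The receptor gene CSF3R was at -0.19. ITGAM, the gene of CD11b, was at -0.10 (SE 0.13) with overlapping groups and was not called. The study followed CD11b as its marker of myeloid differentiation, as protein by flow cytometry. Antigens of progenitors and blasts had 1 called gene of 11. FLT3, a growth factor receptor, went from 97.7 ± 18.4 to 62.6 ± 9.28 (SD, n = 3) and fell by 0.63 (SE 0.23), not called without DMSO replicate 2 (-0.49), DMSO replicate 3 (-0.64), Tan I replicate 1 (-0.57) or Tan I replicate 2 (-0.56), nor after quantile normalization. The sialophorin SPN (-0.31) and CD99 (0.08) had the highest normalized counts. CD34 and KIT were not analysed here.

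**Figure D5:**
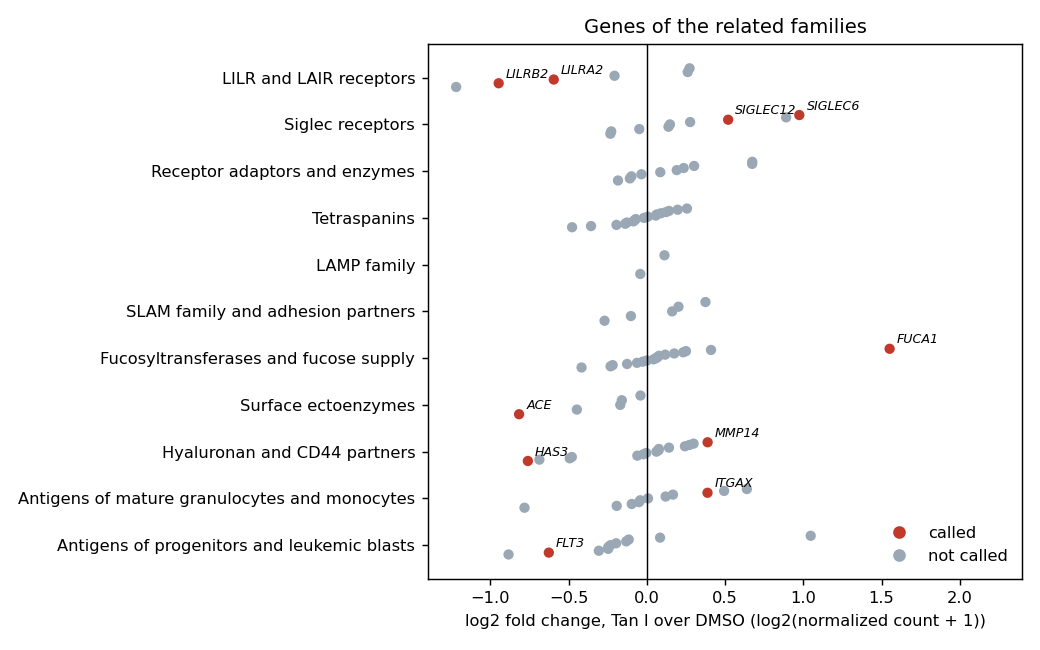
Log2 fold change between Tan I and DMSO (horizontal axis) for the 108 tested genes of the 11 lists, 1 point per gene and 1 line per list, with called genes in red and named. The points run from LILRA4 at -1.22 to FUCA1 at 1.55, and called genes lie on both sides of 0.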

How the data were processed

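RNA-seq of NB4 cells was read from 1 deposited table of 18625 genes with 3 DMSO and 3 Tan I libraries, grouped by the sample labels. The authors mapped reads to GRCh38 with STAR, counted them per gene with featureCounts and scaled them with DESeq2; versions and the strand setting are not given in the sources used here. The per-library signal values as deposited by the authors are normalized counts, and 100% of them were whole multiples of the value of 1 read within a tolerance of 0.01, so reads were recovered. The table also holds the mean and the authors' own comparison (log2 fold change, standard error, Wald score, unadjusted and adjusted p-value), which was not used.

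Genes with a mean of at least 10 (16887, leaving out 1738) were tested with limma 3.58.1 in R 4.3.3 (lmFit, eBayes with trend) on log2(normalized count + 1), so folds of low genes are understated. A call needed an unadjusted p of at most 0.05 with a log2 fold change of 0.25 or more in either direction. edgeR 4.0.16, DESeq2 1.42.0 (on recovered reads), other pseudocounts, filters and scalings, a replicate block and leaving out each library were alternatives. The fits were also run on simulated reads, drawn for each gene separately. Those reads had no component shared among genes beyond library size, so they cannot show how such a component affects the calls. Gene positions came from GENCODE 44 (99.6% of IDs matched) and promoters from RefSeq, GRCh38.p14. Named were all 9 genes, called genes of each list with the pair highest in normalized counts, and LILR genes with a mean of at least 10. ITGAM was named in addition, because the study followed CD11b. The members and lists were chosen with earlier results of these data known.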

Additional observations from a re-analysis of the deposited data

How the results depend on the processing

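The log2 fold changes of the 9 genes moved by less than the spread between replicates in 142 of 143 values over the alternatives. ANPEP moved to 0.25 after quantile normalization. This count does not measure stability. Leaving out 1 of 3 libraries cannot move a fold by more than that spread, and some settings leave the folds as they were. FUT4, CD44 and CD48 changed sign without single libraries. Of the 9, 2 were called, and this became 1 after rescaling all libraries to 1 common total, 1 with a mean of at least 50 (LILRA1 was then left out), 0 after quantile normalization and 0 with a fold threshold of 1 on the log2 scale. Without 1 library the count was 0 to 2: 0 without DMSO replicate 2, and 1 without DMSO replicate 1, DMSO replicate 3, Tan I replicate 1 or Tan I replicate 2. Genes called without adjustment went from 408 to 49 with a fold threshold of 1, and to 160 to 1496 without 1 library: 180 without DMSO replicate 1, 201 without DMSO replicate 3, 1496 without Tan I replicate 1, 160 without Tan I replicate 2 and 271 without Tan I replicate 3. Listed family genes called went from 10 to 1 with that threshold and to 3 to 19 without 1 library, with 6 without DMSO replicate 1, 5 without DMSO replicate 3, 19 without Tan I replicate 1 and 3 without Tan I replicate 2. With adjustment the count was 0, also without each library in turn (0 to 0), except for DESeq2 with 16, where 3602 genes had no adjusted p. The cause of these changes was not tested.

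With a replicate block, 1 of the 9 genes was called, LILRA1, while ANPEP was not; LILRB2 was not called either. The block called 348 genes in all and 11 listed family genes. Whether the numbers pair the samples is not known. Deviations of same-numbered libraries correlated across genes at 0.751, -0.0881 and -0.451 for numbers 1, 2 and 3. DMSO replicate 2 and Tan I replicate 3, which differ in number, correlated at 0.758. Such values also hold the spread along the first principal component, so they cannot tell whether same-numbered libraries shared a culture or a day. Depth limits LILRA1, with 23 to 79 reads per library.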
